A study of Homo sapiens with 6 samples.

Results

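The genes described here are 44 regulators of autophagy and the lysosome, out of 40173 genes in the table. They were chosen by name, with no measured value in the rule. All 44 were found and all 44 passed the filter on low counts that left 19987 genes for the test. They cover the steps from the start of autophagosome formation to the lysosome, grouped below into 8 roles. The study put a lentivirus into HCT116 cells, an established human colorectal cancer line (passage 15-20, genotype given as wild type). One population received a control virus (MOCK) and the other a virus with the coding region of cytoglobin (CYGB), a haem protein that binds oxygen, fused to a FLAG tag. Both were infected at a multiplicity of infection of 20 and selected with puromycin for 2 weeks to give stable lines. RNA was sequenced from 3 libraries per group. How many infections were made is not said, so each group is taken here as 1 transduced population. The libraries are called biological replicates, but whether they came from separate cultures is not said, so p-values measure the spread between libraries.

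Macroautophagy wraps cytoplasm in a double membrane, the autophagosome, and delivers it to the lysosome for breakdown. The ULK1 kinase complex starts the process, a phosphatidylinositol 3-kinase complex marks the membrane, ATG2 and ATG9 proteins supply lipid, and ubiquitin-like conjugation attaches ATG8 proteins to the growing membrane. Receptors bind cargo and ATG8 proteins, lysosomal cathepsins digest the contents, and the factors TFEB and TFE3 can switch on many of these genes, while much of the control of the pathway acts on proteins and lipids, which RNA-seq does not measure.

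The libraries held 58138393 to 65252059 counts in MOCK and 61601071 to 66035266 counts in CYGB. As the labels say, CYGB itself had 10, 28 and 34 counts in MOCK against 34935, 27681 and 32333 in CYGB. Of 8 markers of colon epithelium, 7 were in the table, and their summed TPM (a level that takes transcript length into account) was 5185 to 5646 in MOCK and 5232 to 5570 in CYGB. CDX2 had 7.52 to 9.46 TPM, while VIL1 was near 0, at 0.070 to 0.243 TPM. Summed markers of blood, endothelial, fibroblast, liver and glial cells had 39.5 to 41.5 TPM in MOCK and 38.6 to 49.7 TPM in CYGB. Nearly all of it came from CD68 (10.9 to 26.3 TPM) and COL1A1 (16.9 to 25.3 TPM), both above CDX2. VWF had 0.255 to 1.22 TPM and GFAP 0.444 to 1.64 TPM, while PTPRC, CD3E, PECAM1, COL1A2, DCN and ALB were at or near 0.

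For most of the 44 genes the difference between CYGB and MOCK libraries was small. In bulk RNA, fewer cells with a transcript and less of it per cell cannot be told apart. The log2 fold change, CYGB over MOCK, had a median of -0.03, against -0.01 over all genes tested. It lay within 0.3 of 0 for 36 of the 44 genes, against 13232 of all 19987 genes tested. By edgeR's quasi-likelihood test, adjusted over all genes by the Benjamini-Hochberg method, 0 of the 44 had an adjusted p under 0.05, where 0.055% of all genes did. At an unadjusted p under 0.05, 1 of the 44 (2.27%) was called, against 4.54% of all genes. The threshold of the study's methods, an unadjusted p of at most 0.01 together with a ratio no lower than 2 or no higher than 0.5, was passed by 1 gene (2.27%), ATG2A, against 0.565% of all genes. DESeq2 and edgeR's exact test each gave an adjusted p under 0.05 to 1 member, again ATG2A. The share of all genes called by these methods is not given here. The groups did not overlap, with every library of one group above every library of the other, in 5 of 44 members (11.4%), against 11.0% of all genes. These 5 were ULK2, ATG4A, GABARAPL2, SQSTM1 and CTSL.

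**Figure D1:**
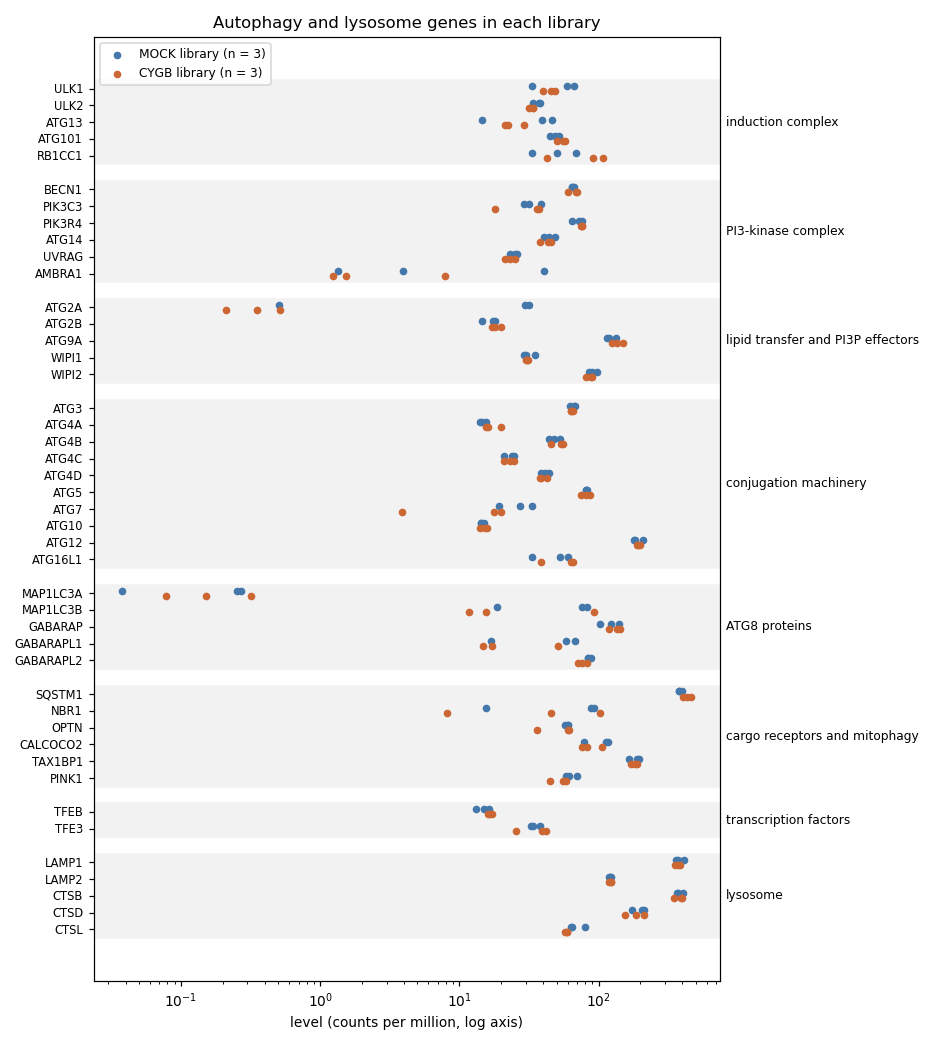
Level of each of the 44 genes in each library, in CPM (counts per 1000000 counts of the library) on a log axis, with MOCK libraries in blue and CYGB libraries in orange (3 each) and genes grouped by role. Most genes form 1 tight cluster of 6 points, while AMBRA1, ATG2A, MAP1LC3A, MAP1LC3B and NBR1 spread widely within a group.

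The induction complex joins the kinase ULK1 or its relative ULK2 to the scaffolds ATG13, ATG101 and RB1CC1 (also called FIP200). ULK1 had 33.0, 66.2 and 59.7 CPM (normalised for library size) in MOCK and 39.9, 45.2 and 48.3 CPM in CYGB. The 3 CYGB libraries lay within the range of the MOCK libraries. The log2 fold change was -0.25 (SE, the standard error, 0.26, and a 95% interval of -0.90 to 0.39). ULK2 had 37.7, 33.9 and 37.3 CPM in MOCK against 31.7, 33.6 and 33.6 in CYGB. Its groups did not overlap, but by a narrow margin, and its log2 fold change was -0.14 (SE 0.10, adjusted p = 0.963 by edgeR's quasi-likelihood test).

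RB1CC1, the scaffold that links the kinase to membrane and cargo, had the highest log2 fold change of the 44 genes, 0.66 (SE 0.41, adjusted p = 0.963 by edgeR's quasi-likelihood test). It had 1583, 2643 and 3562 counts in MOCK against 4647, 5437 and 2234 in CYGB. CYGB replicates 1 and 2 were above every MOCK library, and CYGB replicate 3 was below 2 of them. ATG13, the regulatory subunit that binds ULK1, had 14.6, 46.7 and 39.4 CPM in MOCK against 21.3, 22.4 and 29.1 in CYGB. MOCK replicate 1 was the lowest of the 6 libraries and the other MOCK libraries were the highest, so the groups overlapped and the log2 fold change of -0.47 had a SE of 0.42. Without MOCK replicate 1 the log2 fold change of ATG13 was -0.83 (adjusted p = 0.998 by the same test). ATG101, which stabilises ATG13, had a log2 fold change of 0.17 (SE 0.11).

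The phosphatidylinositol 3-kinase complex is built from the lipid kinase PIK3C3 (VPS34), its partner PIK3R4 (VPS15) and BECN1 (Beclin 1), with ATG14 or UVRAG choosing the site of action and AMBRA1 acting as a regulator. BECN1 had 64.9, 64.0 and 67.0 CPM in MOCK against 68.6, 60.7 and 70.6 in CYGB. The CYGB libraries lay on both sides of the MOCK libraries, and the log2 fold change of 0.03 had a 95% interval of -0.20 to 0.26. PIK3R4, ATG14 and UVRAG had log2 fold changes of 0.10, -0.07 and -0.09, with SEs of 0.09 to 0.12. PIK3C3 stood at -0.12 (SE 0.30), with CYGB replicate 2 at 18.1 CPM and the other libraries between 29.3 and 38.8 CPM.

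AMBRA1 (chr11:46396414-46594125 of GRCh38, minus strand) was uneven. It had 187, 71 and 2075 counts in MOCK against 62, 398 and 80 in CYGB. MOCK replicate 3 alone held 40.3 CPM, and the next library, CYGB replicate 2, held 7.83 CPM. The log2 fold change was -2.11 (SE 1.38, 95% interval -5.48 to 1.26), and without MOCK replicate 3 it was 0.41. The high library and the next one used different transcripts. ENST00000533727 carried 2047 of the counts of MOCK replicate 3, and ENST00000534300 carried 316 of those of CYGB replicate 2 and 0 in every other library. The pseudogene AC024293.1 overlaps AMBRA1 on the same strand. It had 440, 3207 and 3993 counts in MOCK against 2823, 3986 and 3861 in CYGB. The sum of the pseudogene and AMBRA1 varied more than 1.5-fold between libraries. Whether single reads were split between them was not tested.

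ATG2A and ATG2B encode lipid transfer proteins that feed the growing membrane, ATG9A is a membrane protein of the vesicles that seed it, and WIPI1 and WIPI2 bind its phosphatidylinositol 3-phosphate. ATG2A (ENSG00000110046, chr11:64894546-64917248 of GRCh38, minus strand) was the 1 member past the threshold of the methods. It had 1491, 1560 and 26 counts in MOCK against 26, 18 and 11 in CYGB, which is 31.6, 29.5 and 0.505 CPM against 0.515, 0.354 and 0.209 CPM. Nearly all counts were in 2 MOCK libraries, and MOCK replicate 3 had the same count as CYGB replicate 1. Its log2 fold change was -5.83 (SE 1.47, 95% interval -9.41 to -2.25), and the adjusted p was 0.963 by edgeR's quasi-likelihood test. DESeq2 gave an adjusted p of 5.22e-05 and edgeR's exact test one of 0.0187, while the quasi-likelihood test without MOCK replicate 3 gave 0.0249 and a log2 fold change of -6.40. The adjusted p ranged from 5.22e-05 to 1 over the alternatives, and the threshold of the methods was no longer passed without MOCK replicate 1, without MOCK replicate 2, or without any 1 of the CYGB libraries.

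The transcripts of ATG2A show the same split between libraries. The coding transcript ENST00000418259 had 1035, 1340 and 0 counts in MOCK and 0 in each CYGB library. The coding transcript ENST00000377264 had 446, 206 and 0 counts in MOCK against 0, 2 and 0 in CYGB. The few counts of the other 4 libraries came mostly from ENST00000472525, a short retained-intron transcript with 10, 13 and 26 counts in MOCK against 26, 16 and 9 in CYGB. Neither coding transcript passed the filter for the transcript test. Assembled transcripts without a gene entered no gene sum. Of these 21225, at any position, 6 had a similar peak level and a sum with ATG2A that varied at most 1.5-fold between libraries. The same search gave more matches for other members, with 8 for MAP1LC3B, 9 for AMBRA1, 13 for NBR1, 31 for GABARAPL1, 95 for ATG7 and 119 for ATG13. Whether the 6 matches of ATG2A hold its reads was not tested. What sets MOCK replicate 3 apart from the other MOCK libraries at this gene was not tested either.

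The paralog ATG2B, one of the 3 lowest members by TPM (3.89), had 14.5, 17.9 and 17.4 CPM in MOCK against 18.1, 20.0 and 17.1 in CYGB. Its groups overlapped, with a log2 fold change of 0.15 (SE 0.14). ATG9A, WIPI1 and WIPI2 had log2 fold changes of 0.16, -0.03 and -0.08, with SEs of 0.09 to 0.11.

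**Figure D2:**
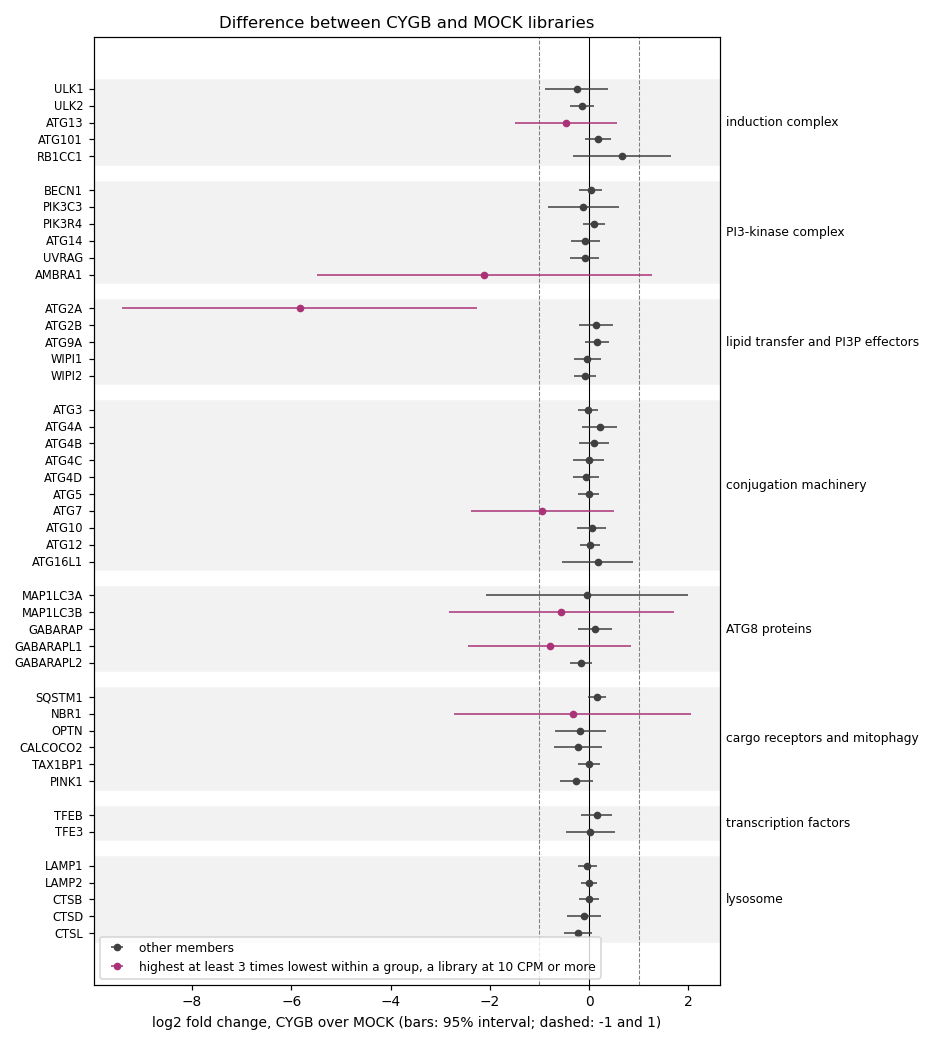
Log2 fold change of each gene, CYGB over MOCK, with its 95% interval from edgeR's quasi-likelihood fit (3 libraries per group) and dashed lines at -1 and 1. Genes with a library of at least 10 CPM and a 3-fold spread within a group are drawn in purple. ATG2A alone has an interval that excludes 0, and the other purple genes have the widest intervals besides MAP1LC3A.

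The conjugation machinery has 10 members. ATG7 is the activating enzyme shared by both conjugation routes, ATG10 and ATG3 are the transfer enzymes, ATG12, ATG5 and ATG16L1 form the complex that directs ATG8 proteins to the membrane, and the ATG4 proteases trim and release ATG8 proteins. For 9 of the 10 the log2 fold change was within 0.3 of 0. ATG5 had 81.4, 80.9 and 83.2 CPM in MOCK against 74.9, 87.5 and 81.4 in CYGB. The CYGB libraries spread on both sides of the MOCK libraries, and the log2 fold change was -0.01 (SE 0.09, 95% interval -0.22 to 0.20).

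ATG7 was the exception, at a log2 fold change of -0.95 (SE 0.59, 95% interval -2.39 to 0.49). It had 33.4, 19.2 and 27.5 CPM in MOCK against 3.86, 19.9 and 17.8 in CYGB. CYGB replicate 1 was far below the rest, and CYGB replicate 2 was above the lowest MOCK library. Most of the difference lay in the main coding transcript ENST00000354449, which had 1311, 886 and 930 counts in MOCK against 109, 536 and 789 in CYGB.

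ATG4A had 14.2, 14.6 and 15.6 CPM in MOCK against 15.7, 16 and 20.0 in CYGB. The groups did not overlap, but the lowest CYGB library was barely above the highest MOCK library, and the log2 fold change was 0.22 (SE 0.15, adjusted p = 0.963 by edgeR's quasi-likelihood test). ATG12 had 181, 208 and 184 CPM in MOCK against 191, 199 and 190 in CYGB, a log2 fold change of 0.02 (SE 0.08). ATG10 had 14.2, 14.2 and 15.2 CPM in MOCK against 14.1, 15.8 and 15.3 in CYGB, a log2 fold change of 0.05 (SE 0.12). Both genes overlapped between the groups, while each had a minor transcript past the threshold, described below. The remaining members ATG3, ATG4B, ATG4C, ATG4D and ATG16L1 had log2 fold changes from -0.06 to 0.17, with SEs of 0.08 to 0.29.

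The ATG8 proteins are the ubiquitin-like tags of the autophagosome membrane, split into the LC3 branch (MAP1LC3A, MAP1LC3B) and the GABARAP branch. Per length, GABARAP (mean 194 TPM, 163 to 238 over the 6 libraries) and GABARAPL2 (156 TPM, 136 to 169) were the best expressed. MAP1LC3B (39.2 TPM, 10.5 to 72.9) and GABARAPL1 (36.7 TPM, 16.1 to 65.3) came next with overlapping ranges, and MAP1LC3A stood at 0.229 TPM. GABARAP had 102, 140 and 123 CPM in MOCK against 118, 143 and 137 in CYGB, with overlapping groups and a log2 fold change of 0.12 (SE 0.14). GABARAPL2 had 84.3, 84.7 and 88.6 CPM in MOCK against 70.8, 82.8 and 76.1 in CYGB. The CYGB libraries were all below the MOCK libraries, with a log2 fold change of -0.17 (SE 0.09, adjusted p = 0.963 by edgeR's quasi-likelihood test).

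MAP1LC3B, the LC3 most used as a marker of autophagosomes, had 884, 4009 and 4234 counts in MOCK against 592, 4721 and 820 in CYGB. In CPM these were 18.7, 75.9 and 82.3 against 11.7, 92.9 and 15.6. Each group held both high and low libraries, and the highest of the 6 was CYGB replicate 2. A log2 fold change of -0.56 came with a 95% interval of -2.83 to 1.71, and without CYGB replicate 2 it was -2.11 (adjusted p = 0.936 by edgeR's quasi-likelihood test). The main transcript ENST00000268607 carried the difference, with 792, 3829 and 4185 counts in MOCK against 550, 4620 and 721 in CYGB. The coding sequence of MAP1LC3B2 differs from it at 2 of 375 bases, so reads could be split between the 2 genes, but MAP1LC3B2 held only 19 to 262 counts in a library.

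GABARAPL1 had 68.0, 17.0 and 58.6 CPM in MOCK against 14.8, 17.1 and 51.2 in CYGB. It too had a low library in MOCK and a high one in CYGB, with a log2 fold change of -0.79 (SE 0.68, 95% interval -2.43 to 0.85). MAP1LC3A, the lowest of the 44 genes, had 12, 2 and 14 counts in MOCK against 16, 4 and 8 in CYGB. A difference in MAP1LC3A was not detectable at this depth (95% interval -2.08 to 2.00 on the log2 scale).

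**Figure D3:**
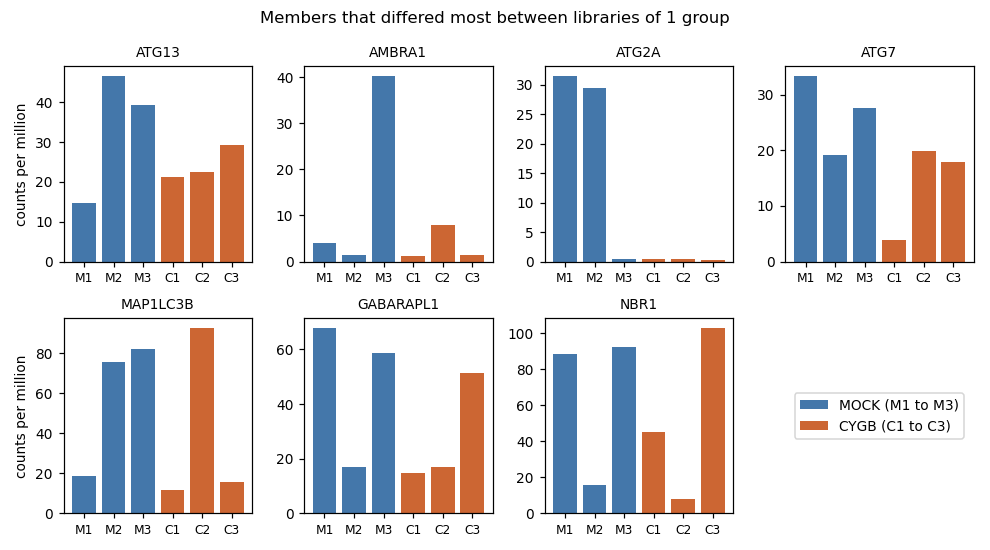
Level in CPM in each library for the 7 genes whose highest library was at least 3 times the lowest within a group (bars, 1 per library, MOCK in blue and CYGB in orange). The high and low libraries are different ones for different genes.

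Cargo receptors bind ubiquitinated cargo and ATG8 proteins, and PINK1 is the kinase that marks damaged mitochondria for removal. SQSTM1 (p62; chr5:179806398-179838078, plus strand) was the highest of the 44 genes, at 347 TPM. It had 380, 381 and 400 CPM in MOCK against 464, 407 and 429 in CYGB. The groups did not overlap, and the means were 387 ± 11.5 CPM for MOCK against 433 ± 28.7 CPM for CYGB (SD, n = 3). SQSTM1 had a log2 fold change of 0.16 (SE 0.07, 95% interval -0.02 to 0.34), and an adjusted p of 0.963 by edgeR's quasi-likelihood test.

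PINK1 had 69.9, 58.1 and 61.8 CPM in MOCK against 44.8, 55.3 and 58.4 in CYGB. The highest CYGB library was just above the lowest MOCK library, and the log2 fold change was -0.26 (SE 0.14, 95% interval -0.59 to 0.07). NBR1, a receptor related in function to SQSTM1, had 88.4, 15.5 and 92.4 CPM in MOCK against 45.3, 8.17 and 103 in CYGB. Replicate 2 was the low library in both groups, and the log2 fold change of -0.33 had a 95% interval of -2.71 to 2.06. OPTN, CALCOCO2 (NDP52) and TAX1BP1 had log2 fold changes of -0.18, -0.22 and -0.01, with SEs of 0.09 to 0.21.

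TFEB and TFE3 are basic helix-loop-helix factors that bind the CLEAR element, a CACGTG-containing motif in the promoters of lysosome genes. TFEB had 16.4, 15.0 and 13.3 CPM in MOCK against 16.4, 16.2 and 17.1 in CYGB. The groups overlapped between 16.2 and 16.4 CPM, and the log2 fold change was 0.15 (SE 0.13). TFE3 had 33.7, 32.5 and 38.3 CPM in MOCK against 25.5, 39.0 and 42.0 in CYGB. The CYGB libraries lay on both sides of the MOCK libraries, with a log2 fold change of 0.03 (SE 0.21).

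LAMP1 and LAMP2 are the main glycoproteins of the lysosome membrane, and CTSB, CTSD and CTSL are proteases of its lumen. LAMP1 had 411, 373 and 358 CPM in MOCK against 375, 352 and 384 in CYGB. The groups overlapped, with a log2 fold change of -0.04 (SE 0.08, 95% interval -0.23 to 0.15). CTSB, second among the 44 genes at 345 TPM, had 402, 366 and 374 CPM in MOCK against 347, 390 and 401 in CYGB, a log2 fold change of -0.00478 (95% interval -0.20 to 0.19). CTSD had 212, 205 and 174 CPM in MOCK against 154, 211 and 187 in CYGB, with overlapping groups and a log2 fold change of -0.10 (SE 0.14). CTSL had 79.8, 63.1 and 64.2 CPM in MOCK against 59.8, 57.7 and 59.6 in CYGB. Its groups did not overlap, and its log2 fold change was -0.23 (SE 0.12, 95% interval -0.51 to 0.06, adjusted p = 0.963 by edgeR's quasi-likelihood test).

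The promoter of LAMP1 is shown because it held the most copies of the TFEB motif among these genes. RefSeq promoters of 300 bases (250 before to 50 after the start, GRCh38.p14) were found for 37 members, with 47 entries. The 6 letters CACGTG, which read the same on both strands, occurred in 4 of 47 entries (8.51%), those of ATG3, ATG14, CTSD and LAMP1, against 7.26% of all promoters of that length. The longer TCACGTGA, which contains the shorter motif, occurred in 2 entries (4.26%), those of ATG3 and LAMP1, against 0.98% of all promoters. The LAMP1 entry held 6 copies of CACGTG, and 4 of them stand in capitals in this stretch of 96 bases upstream of the start (chr13:113297027-113297122 of GRCh38.p14, plus strand).
LAMP1: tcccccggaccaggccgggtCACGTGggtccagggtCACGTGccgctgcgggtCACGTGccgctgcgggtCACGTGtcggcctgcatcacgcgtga
All 4 genes with the motif had groups that overlapped, with log2 fold changes of -0.03 (ATG3), -0.07 (ATG14), -0.10 (CTSD) and -0.04 (LAMP1). RB1CC1, PINK1, ATG4D, UVRAG, LAMP2, MAP1LC3A and CTSB had no entry.

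LAMP2 was the steadiest of the lysosome genes, with 121, 123 and 118 CPM in MOCK against 123, 122 and 119 in CYGB. CYGB over MOCK, this was a log2 fold change of 0.01 (SE 0.07, 95% interval -0.15 to 0.17). The gene makes 3 proteins by swapping its last coding exon, and LAMP2A is the form that acts as receptor in chaperone-mediated autophagy. The coding sequences share their first 1094 bases. The end of each is shown because it is the part that tells the isoforms apart, with the last 15 shared coding bases in lower case and the bases that belong to 1 isoform in capitals (GENCODE 29, stop codon left out). The capitals lie on the minus strand of chromosome X of GRCh38, at chrX:120431326-120431461 for LAMP2A, chrX:120439157-120439292 for LAMP2B and chrX:120428487-120428625 for LAMP2C.
LAMP2A: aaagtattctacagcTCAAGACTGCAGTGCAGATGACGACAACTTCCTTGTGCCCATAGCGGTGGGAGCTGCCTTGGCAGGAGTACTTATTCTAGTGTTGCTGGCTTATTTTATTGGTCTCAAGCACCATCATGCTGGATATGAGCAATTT
LAMP2B: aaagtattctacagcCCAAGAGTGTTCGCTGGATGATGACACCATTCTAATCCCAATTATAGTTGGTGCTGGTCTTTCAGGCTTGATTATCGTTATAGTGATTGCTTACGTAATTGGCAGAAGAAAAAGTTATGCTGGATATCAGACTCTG
LAMP2C: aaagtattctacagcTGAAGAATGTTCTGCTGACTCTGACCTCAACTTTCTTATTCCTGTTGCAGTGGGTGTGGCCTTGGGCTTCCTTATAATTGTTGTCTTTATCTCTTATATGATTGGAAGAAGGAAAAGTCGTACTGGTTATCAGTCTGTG
LAMP2B (ENST00000371335) held most of the counts, 3661, 4194 and 4566 in MOCK and 4494, 4493 and 4546 in CYGB. LAMP2A (ENST00000200639) had 1941, 2121 and 1383 counts in MOCK against 1595, 1551 and 1539 in CYGB, and the groups overlapped, with a log2 fold change of -0.22 (SE 0.21). LAMP2C (ENST00000434600) had 99, 92 and 125 counts in MOCK against 125, 175 and 144 in CYGB. Its groups met at 125 counts before normalisation for library size, and its log2 fold change was 0.48 (SE 0.31). The order LAMP2B over LAMP2A over LAMP2C held in all 6 libraries.

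Transcripts of all members were tested in the same way. The table lists 493 transcripts of the 44 genes (2 to 32 per gene, median 9), of which 252 passed the filter on low counts. With edgeR's quasi-likelihood test, 0 of the 252 had an adjusted p under 0.05 (0.015% of all transcripts did), 10 had an unadjusted p under 0.05 (3.97%, against 3.78% of all transcripts), and 2 passed the threshold of the methods (0.794%, against 1.02% of all transcripts). On simulated counts the same fit gave an adjusted p under 0.05 to 0% of transcripts changed 8-fold, while 65% of them passed the threshold of the methods. The 0 among member transcripts therefore cannot show that they did not change. DESeq2 gave an adjusted p under 0.05 to 4 member transcripts, and edgeR's exact test gave one to 1. The share of all transcripts called by these methods is not given here, so these counts have no background to be read against. Counts of the isoforms of 1 gene are shared out by a step the sources used here do not name, so a transcript value is less certain than a gene value.

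The 2 transcripts past the threshold were minor products. ENST00000513167 of ATG12, annotated as a target of nonsense-mediated decay, was at 0 counts in each MOCK library and at 18, 18 and 43 counts in CYGB. With a floor of 3 counts set over the MOCK group, the pooled counts gave a ratio of 26.0, CYGB over MOCK. This ratio leaves out the spread between libraries, so it is not a lower limit for the fold change. The transcript made up 0.178 to 0.431% of the counts of ATG12 in CYGB (adjusted p = 0.421 by edgeR's quasi-likelihood test). ENST00000514253 of ATG10, a transcript annotated without a protein, had 13, 17 and 7 counts in MOCK against 36, 52 and 45 in CYGB. Its groups did not overlap, with a log2 fold change of 1.83 (SE 0.44, adjusted p = 0.765 by the same test). Both have means below 50 counts, and with a filter at that mean 0 member transcripts passed the threshold.

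Among the other transcripts with an unadjusted p under 0.05, the largest shift in counts was in ATG13. The coding transcript ENST00000524625 had 200, 1918 and 1885 counts in MOCK against 127, 73 and 190 in CYGB, a log2 fold change of -3.34 (SE 0.91, adjusted p = 1.00 by edgeR's quasi-likelihood test). MOCK replicate 1 was close to the CYGB libraries. In CYGB replicate 1 the gene was led by ENST00000530500 (706 counts, and 0 in the other 5 libraries), and in CYGB replicates 2 and 3 by ENST00000529655 (894 and 1150 counts). ENST00000493583 of TFE3, a nonsense-mediated decay transcript, had 1, 18 and 1 counts in MOCK against 627, 788 and 1 in CYGB. It was high in 2 CYGB libraries and at 1 count in the other, while the summed TFE3 counts stayed between 1287 and 2204.

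In ATG4A the balance of 2 transcripts differed between libraries more than their sum did. The coding transcript ENST00000372232 had 169, 130 and 199 counts in MOCK against 626, 208 and 992 in CYGB, which was 16.8 to 25.3% of the gene in MOCK and 25.6 to 94.7% in CYGB. Its groups did not overlap, with a log2 fold change of 1.85 (SE 0.60, adjusted p = 1.00 by edgeR's quasi-likelihood test). The partner ENST00000372246, a nonsense-mediated decay transcript, had 491, 625 and 587 counts in MOCK against 153, 585 and 40 in CYGB. CYGB replicate 2 kept the MOCK pattern, so only 2 of 3 CYGB libraries differed from MOCK by more than the spread within it.

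**Figure D4:**
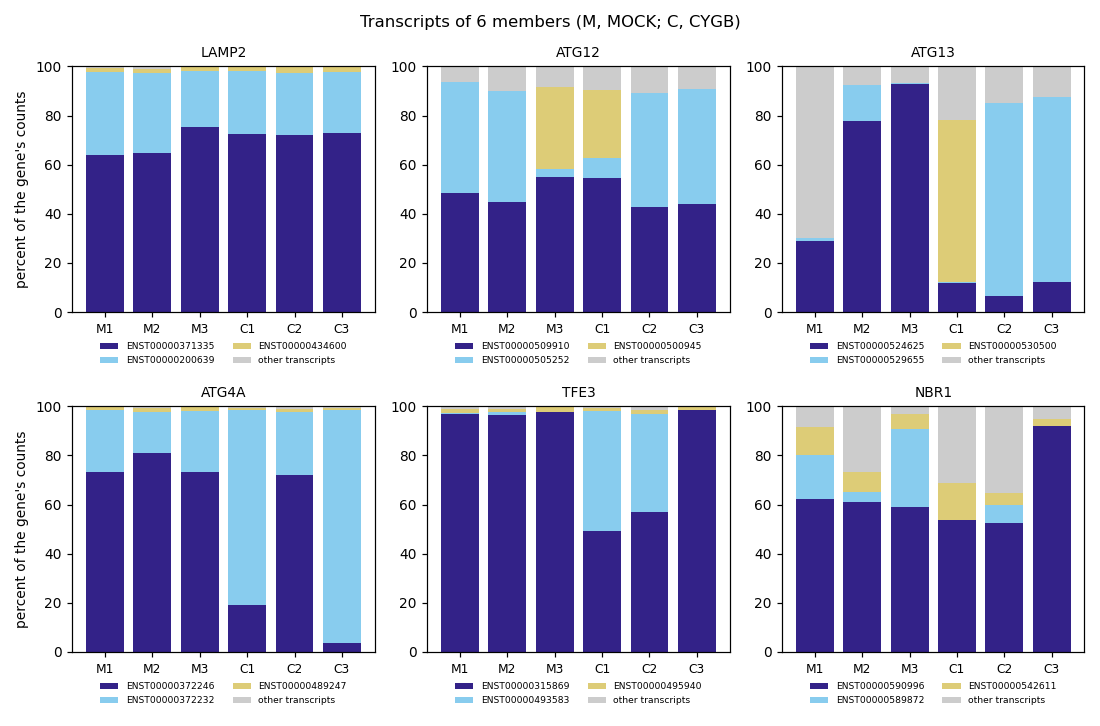
Percent of the counts of a gene held by its 3 most abundant transcripts (coloured) and by all others (grey) in each library (M, MOCK; C, CYGB) for 6 genes. LAMP2 keeps the order of its 3 isoforms in all 6 libraries, whereas the leading transcript of ATG13, ATG12 and ATG4A changes between libraries of 1 group.

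The remaining transcripts with an unadjusted p under 0.05 were ENST00000589872 of NBR1, ENST00000588276 of BECN1, ENST00000639914 of PIK3C3, ENST00000458350 of ATG10 and ENST00000342020 of CTSL. That of NBR1 had 749, 34 and 1500 counts in MOCK against 5, 32 and 2 in CYGB, with replicate 2 at nearly the same count in both groups. That of ATG10 had 61, 208 and 397 counts in MOCK against 48, 42 and 71 in CYGB, with overlapping groups. That of CTSL had 99, 111 and 120 counts in MOCK against 45, 34 and 81 in CYGB, without overlap. That of PIK3C3 had 278, 327 and 532 counts in MOCK against 99, 47 and 196 in CYGB, so its groups did not overlap. That of BECN1 had 80, 108 and 123 counts in MOCK against 396, 251 and 148 in CYGB, and it too did not overlap between the groups, at 2.61 to 3.56% of the gene in MOCK and 3.99 to 11.4% in CYGB. The most abundant transcript differed between libraries of 1 group in 11 of 43 members with a library of at least 10 CPM (25.6%), against 37.6% of all such genes. ATG12, for instance, was led by the coding transcript ENST00000509910 in 3 libraries and by the retained-intron transcript ENST00000505252 in the other 3. The type of transcript also varied between genes. Protein-coding transcripts held a median of 95.8% of the counts of a member, but 12.1% for ATG4B, whose leading transcript is annotated as a nonsense-mediated decay product, and 47.6% for ATG4A.

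The members also differed in how evenly the libraries of 1 group expressed them. A gene was counted as uneven when it reached 10 CPM in a library and its highest library was at least 3 times its lowest within MOCK or within CYGB, a limit set after the values were seen. This held for ATG13, AMBRA1, ATG2A, ATG7, MAP1LC3B, GABARAPL1 and NBR1, 7 of the 43 members that reached 10 CPM (16.3%), against 12.5% of all such genes. ATG13, at a ratio of 3.19, was just inside the limit, and RB1CC1, at 2.52, was the nearest outside it among those that reached 10 CPM. The other 37 genes had log2 fold changes between -0.26 (PINK1) and 0.66 (RB1CC1), and the median over them of the larger ratio within a group was 1.19. The uneven genes had log2 fold changes from -5.83 to -0.33, and of these only ATG2A passed the threshold of the methods. Genes that overlap a member add an uncertainty here. A gene with 100 or more counts in a library overlapped 20 of the 44 members. It lay on the other strand for 17 of them, and on the same strand for AMBRA1, ATG9A and CTSD. The sources used here do not say that the counting used strand.

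**Figure D5:**
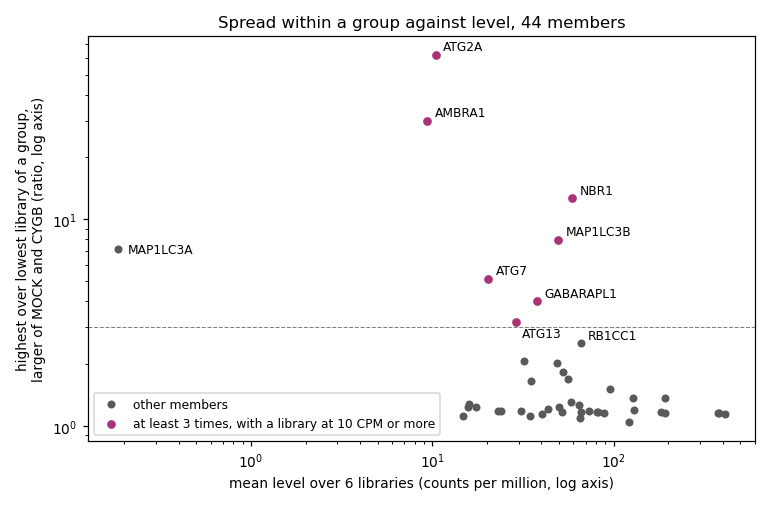
Highest over lowest library within a group (the larger ratio of MOCK and CYGB) against mean level in CPM for the 44 genes, both on log axes. The 7 uneven genes (purple) lie above the dashed line at 3, as does MAP1LC3A at under 10 CPM, and most of the others lie below 1.5.

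Other genes of the pathway were read from the same fit. In 6 lists of lysosomal hydrolases, lysosomal membrane and V-ATPase, autophagosome fusion, organelle receptors, mTORC1 and AMPK control, and other core autophagy genes, 149 of 152 genes were tested. The median log2 fold change was -0.01, 0 genes passed the threshold of the methods and 0 had an adjusted p under 0.05, by edgeR's quasi-likelihood test or by DESeq2 or edgeR's exact test. At an unadjusted p under 0.05, 4 were higher and 2 lower in CYGB (4.03%), against 4.54% of all genes tested. Each of these 6 had an adjusted p of 0.963 by edgeR's quasi-likelihood test. The groups did not overlap in 21 of the 149 genes (14.1%), against 11.0% of all genes tested.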

How the data were processed

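The table that the authors deposited holds raw counts of 3 MOCK and 3 CYGB libraries, 1 line per transcript. The submitters' processing notes list HISAT, HISAT2, DESeq2 and hg19 without roles, and the counting step is not given in the sources used here. Positions are those of GRCh38, since 99.6% of the 151393 transcripts that GENCODE 29 also lists stand at the same place in it. Assembled transcripts without a gene, 18.6 to 19.5% of a library, entered neither library sizes nor tests.

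Counts were summed per gene identifier, filtered with filterByExpr (minimum count 10), normalised by TMM and tested with the quasi-likelihood test of edgeR 4.0.16 (limma 3.58.1, R 4.3.3), with no term for the replicate number. Benjamini-Hochberg adjustment was made over all 19987 genes or 66609 transcripts tested. CPM used TMM-normalised library sizes, and TPM used the lengths of GENCODE 29 transcripts. Sequences came from GENCODE 29 and RefSeq (GRCh38.p14). Python 3.11.15, pandas 2.3.3 and matplotlib 3.10.9 made the tables and figures. Each pair of libraries differed by far more than counting noise (chi-square per gene at least 108), and each library was treated as 1 replicate. This measure cannot show whether the libraries came from separate cultures. The biological coefficient of variation common to all features was 36.6% for genes and 78.9% for transcripts. On simulated counts with these means and dispersions, 78% of 200 genes changed 8-fold reached an adjusted p under 0.05 among 19987 genes, and 0% of 200 such transcripts did among 66609. The threshold of the methods was passed by 88.5% of these genes and 65% of these transcripts.

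The members and lists were chosen with earlier results of these data known. Values per library are given for members past the threshold or with an unadjusted p under 0.05, with groups that do not overlap, among the 5 largest absolute fold changes, with a transcript past the threshold, or among the 3 highest or 3 lowest by TPM, and for ULK1, BECN1, ATG5, ATG7, MAP1LC3B, GABARAP, SQSTM1, TFEB, TFE3, LAMP1, LAMP2, CTSD and PINK1. ATG13, GABARAPL1, NBR1 and the transcripts outside this rule were added after their values were seen. Alternatives were DESeq2 1.42.0, its size factors in edgeR, edgeR's exact test, no filter or a mean of 50 counts, the replicate block, each library left out, the most abundant transcript alone and transcripts without a gene kept. The marker CDX1 and protein sequences were not analysed here.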

Additional observations from a re-analysis of the deposited data

How the results depend on the processing

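Deviations from the group mean correlated at 0.032, 0.0067 and 0.032 between libraries of the same number (over genes), under the limit of 0.1 set for pairing, although each of the 6 libraries correlated best with the library of its own number in the other group, a hint from the data and not from the design. The numbers were therefore not taken as pairs. With the replicate block, ATG2A had a log2 fold change of -4.91, 0 member genes and 0 member transcripts were past the threshold, and the fold changes of MAP1LC3A (0.054) and TFE3 (-0.0014) changed sign. No other call of the members changed with the block.

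The 1 member gene past the threshold, ATG2A, was also lost with transcripts without a gene kept (log2 fold change -5.83) and with the most abundant transcript alone (0 members), where its leading transcript did not pass the filter. With 1 library left out its log2 fold change ranged from -6.40 to -5.38, the number of members past the threshold from 0 to 1, and the number with an adjusted p under 0.05 from 0 to 1. DESeq2 and edgeR's exact test each gave 1 member gene with an adjusted p under 0.05. Of member transcripts, 2 passed the threshold, whereas DESeq2 gave 9, the exact test of edgeR 6, a fit with no expression filter 5, a filter at a mean of 50 counts 0, and fits with 1 library left out 1 to 6 (lowest without CYGB replicate 1, highest without MOCK replicate 3). An adjusted p under 0.05 was given to 4 member transcripts by DESeq2 and 1 by edgeR's exact test. Shares of all genes or transcripts called under these alternatives are not given here. Of the related lists, 0 to 1 genes passed with 1 library left out, NPRL2 without MOCK replicate 2 and ATP6AP2 without CYGB replicate 1, named after the values were seen. Why these numbers differ was not tested, except that the lower number at a mean of 50 counts comes with fewer transcripts tested (155).

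Of the 44 log2 fold changes, 21 changed sign under at least 1 alternative, and 23 did not. With the most abundant transcript alone these were PIK3C3 (0.21), UVRAG (0.095), WIPI2 (0.19), ATG4A (-1.14), ATG4C (0.12), ATG12 (-0.046), NBR1 (0.055), TAX1BP1 (0.13), TFE3 (-0.41) and CTSB (0.63). With 1 library left out the ranges that crossed 0 were -3.47 to 0.41 for AMBRA1, -1.29 to 0.18 for NBR1, -0.68 to 0.33 for MAP1LC3A, -0.28 to 0.15 for PIK3C3, -0.30 to 0.032 for OPTN, -0.21 to 0.013 for CTSD, -0.039 to 0.39 for ATG16L1, -0.11 to 0.22 for TFE3, -0.14 to 0.00038 for ATG14, -0.011 to 0.089 for BECN1, -0.082 to 0.045 for WIPI1, -0.074 to 0.054 for ATG4C, -0.071 to 0.044 for ATG5, -0.020 to 0.086 for ATG12, -0.081 to 0.032 for TAX1BP1, -0.083 to 0.017 for LAMP1, -0.0086 to 0.026 for LAMP2 and -0.043 to 0.054 for CTSB. AMBRA1 was above 0 only without MOCK replicate 3.

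Depth limits MAP1LC3A and the low transcripts most. With each group taken as 1 transduced population, an effect of the transgene cannot be told apart from other differences between the populations.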
